A study of Mus musculus with 4 samples.

Results

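The stretch described here runs from 59.238 to 62.973 Mb of mouse chromosome 18 (build mm10), a length of 3.73 Mb. It was chosen by the ranks of its regions of open chromatin, which were better in Hox-/- than in wt mouse embryonic stem (mES) cells in the same 4 libraries that are described below. Every difference between the genotypes is therefore given as a description, with no test. The members are 440 merged regions of a total of 208141. A merged region is a place on chromosomes 1 to 19, X or Y where peaks of at least 1 library lie, with peaks of different libraries joined when they overlapped by at least 1 bp. The 2 Mb on either side, with 89 merged regions on the left and 184 on the right, served as the reference.

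The data are 4 ATAC-seq libraries, 2 of wt and 2 of Hox-/- mES cells. Both genotypes were grown alike, in DMEM with 10% serum, 100 ng/ml leukaemia inhibitory factor, 3 µM of the GSK-3 inhibitor CHIR99021 and 1 µM of the MEK inhibitor PD0325901, and each library was made from 50000 cells with 30 min of tagmentation and 12 cycles of PCR. The titles of the Hox-/- libraries carry the letters BADC, which the labels do not explain. The labels name no further agent, do not list the Hox genes that are lost, and do not say how the alleles were made or whether the cells are 1 clone. They also do not say whether replicates 1 and 2 were separate cultures, so the spread between them may be technical.

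ATAC-seq uses a transposase that cuts and tags DNA where nucleosomes leave it accessible, so active promoters and enhancers collect many tagged fragments. A peak caller compares the pile of fragments at each place with a local background and gives every peak a height, a fold over that background and a p-value. Hox genes encode homeodomain transcription factors that give cells of the embryo their position along the body axis, and they are little expressed in undifferentiated stem cells. No Hox cluster lies on chromosome 18. Its interval from 59 to 63 Mb holds genes of many kinds, among them the receptor genes Pdgfrb and Csf1r next to each other, the caudal homeobox gene Cdx1 and the microRNA pair Mir143 and Mir145a.

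The 2 wt lists held 213705 and 216795 peaks and the 2 Hox-/- lists held 191704 and 200214. Markers of the labelled cell type were mostly open: of 12 embryonic stem cell genes, 11 and 10 had a peak within 1 kb of a gene end in the wt libraries and 10 in each Hox-/- library, with Dppa3 called in none and Nr5a2 in wt replicate 1 alone. Of 6 genes typical of fibroblasts, the cells used as feeder layers, 5 had such a peak in every library and Postn had none. Peaks at those 5 genes were therefore present in both genotypes, and their part in any result was not tested. A list of peaks gives no read count, so the sequencing depth is unknown and levels were compared only as ranks, or as ratios, within a library.

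More of the members were called in the Hox-/- libraries, although these had the shorter lists. Each wt library had a peak in 321 of the 440 regions. Hox-/- replicate 1 had a peak in 337 and Hox-/- replicate 2 in 369. Both Hox-/- libraries thus lay above both wt libraries, and the Hox-/- calls came to 1.10 times the wt calls. Over all merged regions the ratio was 0.920, in the left flank it was 0.893 and in the right flank 0.901, with both Hox-/- libraries below both wt libraries in each flank. As shares, 73.0% of the members were called in each wt library, against 80.1% and 81.3% of all regions. The Hox-/- shares of 76.6% and 83.9% were above the 72.1% and 76.4% of these libraries over all regions.

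Regions called in 1 genotype alone also leaned to Hox-/-. Peaks of both Hox-/- libraries and of neither wt library were found in 17 members, or 3.86%, where the share over all merged regions was 1.23%. The opposite pattern was seen in 3 members, or 0.682%, against 3.84% over all regions. Among peaks with a −log10 q of at least 5 these counts were 8 and 4, shares of 1.82% and 0.909% where all regions had 0.876% and 3.86%. Leaving out 1 library loosens this rule, so the counts rose both in the stretch and over all regions, by an amount that varied with the library left out. Without wt replicate 1 they were 25 and 19 (5.68% and 4.32%, against 2.74% and 9.66% over all regions by the same rule), and without wt replicate 2 they were 24 and 16 (5.45% and 3.64%, against 2.89% and 8.99%). Without Hox-/- replicate 1 they were 58 and 6 (13.2% and 1.36%, against 5.64% and 6.60%), and without Hox-/- replicate 2 they were 45 and 19 (10.2% and 4.32%, against 4.69% and 8.76%). The span from 60085841 to 61569482 held 15 of the 17. They lay inside Smim3, Myoz3, Synpo, Tcof1, Arsi, Ppargc1b, Arhgef37 and Csnk1a1, or outside protein-coding genes, with the nearest protein-coding gene end in Gm4951, Synpo, Tcof1, Arsi or Slc26a2. Of the others, the region at chr18:62494782-62495326 lay in Htr4, a serotonin receptor gene, and the one at chr18:62799567-62799890 had its nearest protein-coding gene end in Spink13. The 3 regions called in both wt libraries alone were at chr18:59703421-59703687, chr18:62062814-62063135 and chr18:62952043-62952492, far from each other.

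To compare strength, the 122749 regions called in all 4 libraries were ranked within each library by the best −log10 p of their peaks, with rank 1 the strongest, so that each library ranked the same set. Among the members, 266 were called in all 4 libraries and could be ranked. Their median rank was 68991 in wt replicate 1, 64524 in wt replicate 2, 52138 in Hox-/- replicate 1 and 53181 in Hox-/- replicate 2. Both Hox-/- medians lay in the stronger part of the ranking and both wt medians in the weaker part, and the groups did not overlap. The rank difference used from here on is the mean log2 rank in wt minus that in Hox-/-, so that values above 0 mean a better rank in Hox-/- and a value of 1 means a rank number 2 times lower. Its median was 0.31 over the 266 members, with quartiles at 0.07 and 0.59. In the left and right flanks the median was 0.05 and 0.03, and over all ranked regions it was 0.00.

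The same shift was seen in each of the 4 possible pairs of a wt and a Hox-/- library, at 0.30, 0.32, 0.28 and 0.29. Between the 2 wt replicates the median difference was 0.04, and between the 2 Hox-/- replicates 0.02. Of the 266 members, 218 had a rank difference above 0, a share of 82.0% against 50.8% of all ranked regions. In 158 members, or 59.4%, both Hox-/- ranks were better than both wt ranks, where 20.5% of all ranked regions had that order. The reverse order, both Hox-/- ranks worse, was seen in 16 members, or 6.02%, against 20.3% over all ranked regions. These shares describe the contrast that chose the stretch. With 2 libraries against 2, an exact two-sided permutation test could not have given a p below 0.33.

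Peak widths differed little between the genotypes in the stretch, where over the genome they were narrower in Hox-/-. The median width of the ranked members was 490 and 524 bp in the wt libraries and 500.0 and 520 bp in the Hox-/- libraries, so the genotypes overlapped. Over all ranked regions both wt medians, 512 and 513 bp, were above both Hox-/- medians, 475 and 481 bp. The log2 width difference, Hox-/- minus wt, had a median of 0.01 in the stretch, −0.03 and −0.08 in the left and right flanks and −0.06 over all ranked regions. Without wt replicate 1, Hox-/- replicate 1 or Hox-/- replicate 2 the value in the stretch was 0.018, 0.028 and 0.018. Both Hox-/- widths exceeded both wt widths in 68 members, or 25.6%, where 9.66% of all ranked regions did so. Both were narrower in 44 members, or 16.5%, against 30.0%. Summits stayed in place: the median distance between summits of the 2 genotypes was 12 bp, as over all ranked regions.

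The shift was not even along the stretch. In consecutive bins of 0.5 Mb counted from the left edge, the median rank difference was −0.06 over 3 regions, 0.59 over 9, 0.34 over 35, 0.40 over 77, 0.31 over 61, −0.00 over 32, 0.51 over 23 and 0.35 over 26 in the shorter last bin. The first and the sixth bin were therefore at the level of the flanks and the others were raised. A running median over 15 neighbouring regions moved between −0.08 and 0.75 inside the stretch and was at or above 0.25 at 71.1% of its positions. In the flanks it stayed between −0.14 and 0.16. Of the autosomal windows of 0.5 Mb that held at least 10 ranked regions, 46 of 3239, or 1.42%, had a median of 0.25 or more.

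**Figure D1:**
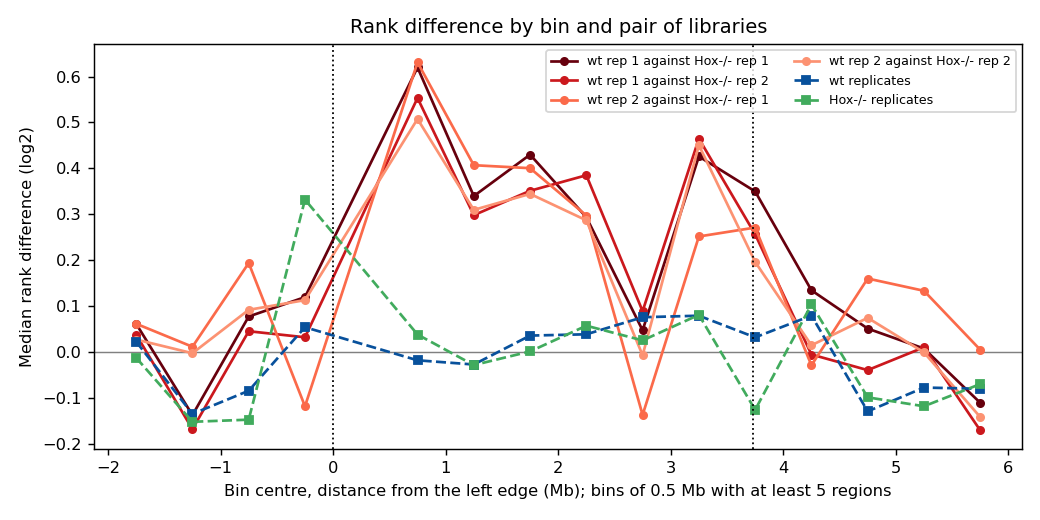
Median rank difference (y axis, log2 scale) in bins of 0.5 Mb with at least 5 ranked regions, against the distance of the bin centre from the left edge of the stretch (x axis, Mb). Solid lines with circles are the 4 pairs of a wt and a Hox-/- library, dashed lines with squares are the replicate pairs, and dotted lines are the edges of the stretch; the 4 solid lines rise together after the left edge, lie between −0.14 and 0.09 in the sixth bin of the stretch and rise again.

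The stretch with its flanks was then divided into consecutive pieces, each described by its own median, by choosing the boundaries that left the smallest summed absolute deviation, with at least 10 regions in a piece. With 3 pieces the raised part ran from 59962679 to 62953602 and held 258 ranked regions with a median of 0.32. The end of this piece varied between pairs: it was 61742307 for wt replicate 2 with Hox-/- replicate 1, and 62988495 and 62994478 for wt replicate 1 with Hox-/- replicates 2 and 1. By pileup it was 61742307 too. Because the bins showed a dip inside the stretch, 5 pieces were also fitted, a choice made after seeing the bins. These gave a raised left block, an unshifted middle block and a raised right block between the outer pieces. The percentage of the summed deviation removed was 9.19% with 3 pieces and 14.4% with 5, so most of the scatter between single regions lay within the pieces.

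The left block, chr18:59962679-61742307, was 1.78 Mb long and held 182 ranked regions of 300 merged regions. Its median ranks were 66897 and 62852 in the wt libraries and 48389 and 48108 in the Hox-/- libraries, with no overlap of the groups. The median rank difference was 0.35, 163 regions were above 0, and in 120, or 65.9%, both Hox-/- ranks were better than both wt ranks, against 4 with the reverse order. Calls were made 1.13 times as often in Hox-/- as in wt, at 215 and 220 regions in wt and 234 and 259 in Hox-/-. Those 15 regions called in both Hox-/- libraries and neither wt library fell in this block, and no region of it was called in both wt libraries alone.

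The middle block, chr18:61746620-62349636, was 0.603 Mb long and held 36 ranked regions of 60. Its median ranks were 74330 and 62600 in wt and 66911 and 71290 in Hox-/-, so that each Hox-/- library lay between the wt libraries. The median rank difference was −0.03. Both Hox-/- ranks were better in 8 regions and worse in 9, shares of 22.2% and 25% that were near those of all ranked regions. Calls in Hox-/- came to 0.916 times those in wt, close to the ratio over all regions.

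The right block, chr18:62514775-62953602, was 0.439 Mb long and held 40 ranked regions of 62. Its median ranks were 70639 and 71893 in wt and 48497 and 52602 in Hox-/-, again without overlap. The median rank difference was 0.46, and 36 regions were above 0. Both Hox-/- ranks were better in 30, or 75%, against 20.5% of all ranked regions, and worse in 1, or 2.5%, against 20.3%. The 0.725 Mb between the left edge of the stretch and the first region of the left block held 8 merged regions, of which 5 were ranked. None of these 5 had both Hox-/- ranks better and 2 had both worse, where 20.5% and 20.3% of all ranked regions did. Their median rank difference was −0.06. They were weak regions, with median ranks of 95778 and 101029 in wt and 105866 and 103056 in Hox-/-. The weakest class of regions in the left block, defined below, had a median rank difference of only 0.11. No shift towards Hox-/- was seen in this part, nearly empty of open regions, but 5 weak regions could hardly show one.

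**Figure D2:**
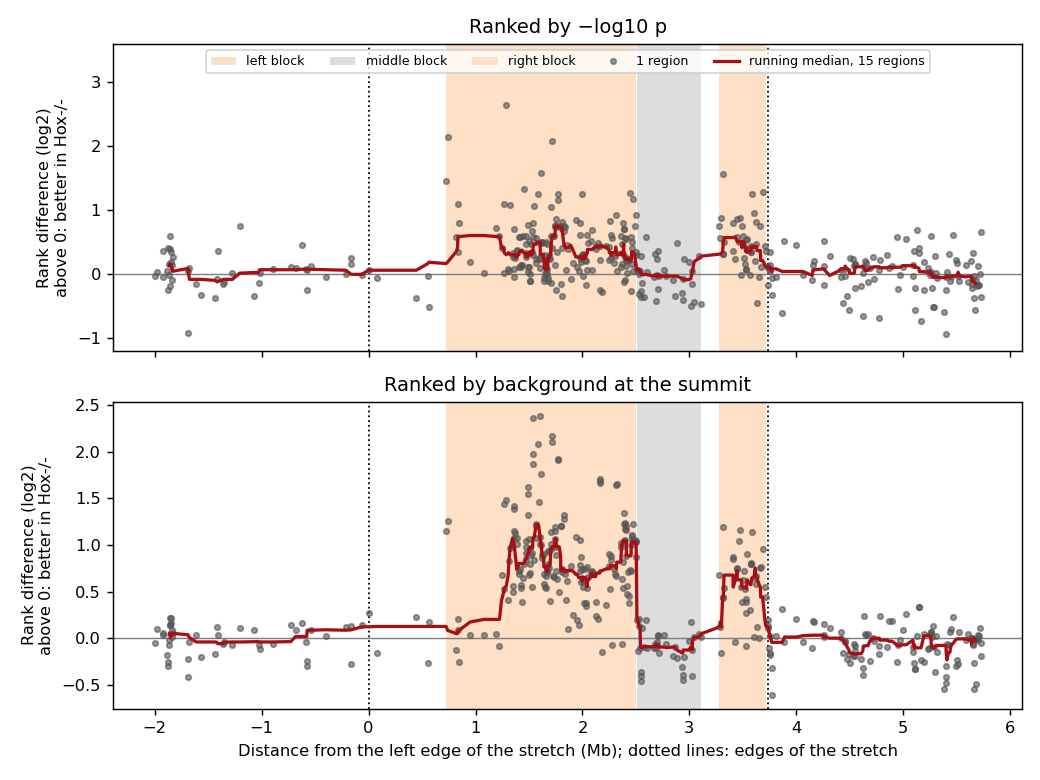
Rank difference of every ranked region (points, y axis, log2 scale) against distance from the left edge of the stretch (x axis, Mb), ranked by −log10 p in the upper panel and by background at the summit in the lower panel; red lines are running medians of 15 regions, dotted lines the edges of the stretch. In both panels the points of the left and right blocks lie mostly above 0, and in the upper panel those of the middle block lie around 0. In the lower panel most backgrounds of the middle block and of the start of the left block are at the floor of their library. No order in the middle block and no start of the left block can therefore be read from them.

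The boundaries were fitted to these differences, so a step at each of them was fixed by the fit and its size is a description. The median of the 10 ranked regions before the left block was −0.02 and that of the first 10 inside it was 0.67. From the left to the middle block the medians of 10 regions went from 0.39 to −0.07, from the middle to the right block from −0.11 to 0.54, and from the right block outwards from 0.41 to 0.07. Between replicates the medians at the same places also moved, though less at the left start: in the wt pair they went from 0.00 to −0.00, −0.05 to 0.24, 0.16 to 0.06 and −0.15 to 0.12 across the 4 boundaries, and in the Hox-/- pair from 0.07 to −0.10, 0.21 to 0.10, −0.13 to 0.18 and −0.18 to −0.11. The genotype step at the right end was thus close in size to that of the wt replicates. The gap between the last region of one piece and the first of the next was 160 kb at the start of the left block, 4.31 kb between the left and middle blocks, 165 kb between the middle and right blocks and 17.0 kb at the end of the right block. The start and the end of the raised parts next to the wide gaps cannot be placed more finely than these gaps allow.

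The 4 wt and Hox-/- pairs share libraries, since each library is in 2 of them, so their fits are not independent. With 5 pieces they gave the start of the left block at 59962679 and the start of the right block at 62514775 every time. The boundary between left and middle block fell between 61737693 and 61764587 in the 4 pairs. The right block ended at 62953602 in 3 pairs and at 62988495 in the pair of wt replicate 1 and Hox-/- replicate 2. The middle block, as each pair placed it, had a median of 0.03, −0.01, −0.14 and −0.05. Fitted in the same way, the replicate pairs gave mostly other boundaries. A boundary of the wt pair fell between 61726772 and 61737063, near the end of the left block. A boundary of the Hox-/- pair fell between 62283554 and 62323494, near the end of the middle block at 62349636. The piece medians of the replicate pairs ran from −0.09 to 0.13 for wt and from −0.16 to 0.16 for Hox-/-. At the edges of the stretch as it was picked, the 25 regions inside differed from the 25 outside by 0.32 on the left and 0.30 on the right. Ranked by fold over background these steps were 0.14 and −0.01, so the direction turned on the right. The same steps were 0.02 and 0.02 on the left and −0.05 and −0.28 on the right for the wt and the Hox-/- replicate pair. Leaving out wt replicate 2 or Hox-/- replicate 1 lowered the left step to 0.16 and 0.18, and leaving out Hox-/- replicate 2 raised the right step to 0.61.

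At the edges as they were picked, the nearest 3 regions inside did not stand above those outside. The first 5 ranked regions inside the left edge had rank differences of 0.07, −0.06, −0.36, −0.02 and −0.50, and the 5 nearest outside, from the edge outwards, had −0.02, 0.17, 0.26, 0.00 and −0.04. Inside the right edge the last 5 regions, towards the edge, had 0.45, 0.37, −0.16, 0.11 and 0.12, and the first 5 outside had 0.09, 0.35, 0.15, 0.05 and −0.32, the first 4 of them in Napg. The first region of the left block, chr18:59962679-59963676, ranked 18072 and 27021 in wt and 9004 and 7099 in Hox-/-. Next to it, chr18:59976504-59977090 ranked 35766 and 27930 in wt and 5928 and 8586 in Hox-/-, the second highest difference of all members at 2.15, and 2.47 by fold. Both of these regions lie far from protein-coding genes, the latter 234914 bp from the nearest protein-coding gene end, that of Gm4951.

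The boundary between the left and the middle block fell inside Afap1l1, which encodes an actin filament associated protein and spans 61730262 to 61786662. The last 3 regions of the left block lie in this gene, with rank differences of 0.31, 0.35 and 0.92. The last of them, chr18:61741957-61742307, ranked 107425 and 110548 in wt and 54193 and 60843 in Hox-/-. The first 3 of the middle block lie in it too, at 0.08, 0.08 and −0.31, and chr18:61746620-61747347 ranked 16754 and 16193 in wt and 14639 and 16683 in Hox-/-, which overlap. On the other side, the last region of the middle block and the first of the right block lie in the neighbouring genes Htr4 and Fbxo38. They had rank differences of −0.46 and 0.75. At the right end, the last region in the Wnt inhibitor gene Apcdd1 had 0.37, and the next, on the way to Napg, had −0.16.

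The size of the difference depended on which value of a peak was ranked. Given a peak's fold and p-value, its summit pileup, the number of fragments stacked at the summit, and the background expected there can be solved under the peak caller's Poisson model, and every line gave a pileup within 0.05 of a whole number. This step was added after seeing the data. Ranked by summit pileup, the median difference of the 266 members was 0.45. Ranked by background it was 0.71, with both Hox-/- ranks better in 208 members, or 78.2%, against 21.5% of all ranked regions, and both worse in 17, or 6.39%, against 22.7%. Ranked by the fold over background it was 0.06, with 75 members, or 28.2%, against 21.3%, and both Hox-/- folds ranked worse in 43 members, or 16.2%, against 18.9%. By fold the flanks had medians of 0.08 on the left and 0.09 on the right, so the stretch lay below both flanks. The left block had 0.05 by fold, like the outer left piece at 0.05 and below the outer right piece at 0.09, and the right block had 0.16, above both. By background the flanks had 0.02 and −0.04 and by pileup 0.02 and 0.00, both far below the stretch.

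Within each library, the background at the peaks of the left block was 1.35 and 1.32 times the library's median in wt and 2.00 and 2.03 times in Hox-/-. In the right block the ratios were 0.750 and 0.696 in wt and 1.15 and 1.09 in Hox-/-. The Hox-/- ratios lay above the wt ratios in both blocks, by much more than the replicates differed. In the middle block they were 0.694, 0.685, 0.702 and 0.720, in the left flank 0.779, 0.795, 0.747 and 0.775, and in the right flank 0.933, 0.951, 0.918 and 0.873, in the order wt 1, wt 2, Hox-/- 1 and Hox-/- 2. Summit pileup in the left block was 1.05 and 1.17 times the library's median in wt and 1.53 and 1.66 times in Hox-/-. For the right block these ratios were 0.802 and 0.791 against 1.25 and 1.16, and for the middle block 0.765 and 0.892 against 0.745 and 0.712.

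A background cannot fall below a floor that the peak caller sets for each library, taken here as the lowest 0.1% of its backgrounds plus 1%. In the middle block 52.8% and 52.8% of the regions were at the floor in wt and 55.6% and 61.1% in Hox-/-, and in these a lower background could not be seen. Ranks among regions at the floor rest on differences of about 1% or less, so no order by background is read in this block. In the left block the shares were 21.4% and 25.8% in wt and 9.34% and 5.49% in Hox-/-. All 5 ranked regions between the left edge and the left block were at the floor in all 4 libraries. By background, the fitted rise on the left began at 60480876, and the first 10 regions of the left block had a median background difference of 0.04 where their −log10 p difference was 0.67. In the bin that holds the start of the block, 88.9% and 100% of the 9 ranked regions were at the floor in wt and 77.8% and 55.6% in Hox-/-, so a later start cannot be read from the background. The end of the left block and the end of the right block were placed at the same regions by background as by −log10 p.

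**Figure D3:**
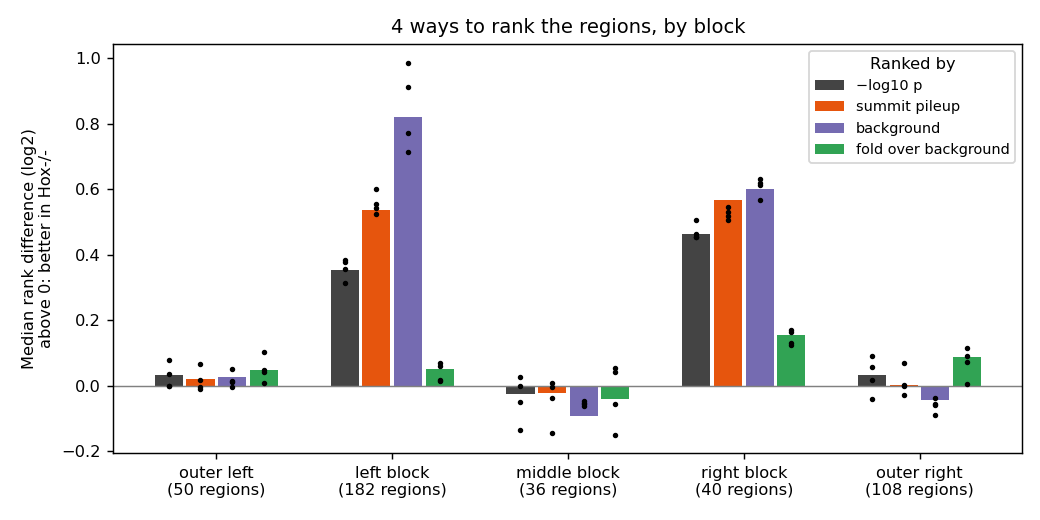
Median rank difference (y axis, log2 scale) of the ranked regions of each block (x axis), with regions ranked in 4 ways; bars are the medians of the difference between the genotype means and points are the medians of the 4 pairs of a wt and a Hox-/- library. In the left block the bars rise from 0.05 by fold over background through 0.35 by −log10 p and 0.54 by summit pileup to 0.82 by background, in the right block they run from 0.16 to 0.60, and in the other blocks they lie between −0.09 and 0.09.

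Stronger regions differed more in log2 rank than weaker ones. With all ranked regions divided into 3 classes of equal size by their mean log2 rank over the 4 libraries, the 87 members in the strongest class had a median rank difference of 0.60, and 69 of them, or 79.3%, had both Hox-/- ranks better, against 20.7% of that class in the genome. In the middle class the median was 0.33, with 54 of 95, or 56.8%, against 20.6%. The weakest class had 0.08, with 35 of 84, or 41.7%, against 20.1%. The order was the same in the left block, at 0.62, 0.38 and 0.11, and in the right block, at 0.78, 0.46 and 0.27. The 7 strongest-class regions of the middle block had a median of 0.08. A log2 rank spreads the strong end of a list more than the weak end, and how much of the trend comes from this was not tested.

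Regions near gene ends and regions far from them both ranked better in Hox-/-. The 38 ranked members within 1 kb of a protein-coding gene end had a median of 0.42, and 27 of them had both Hox-/- ranks better, against 20.3% of such regions in the genome. For the 228 members farther away the median was 0.29 and the count 131, against 20.5%. The regions near gene ends were also the stronger ones, with a median mean rank of 35557 against 60828. In 50 of the 440 merged regions, or 11.4%, a gene end lay within 1 kb, where 11.5% of all merged regions had one.

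The stretch was richer in open regions and in genes than its flanks. It held 118 merged regions per Mb, against 44.5 and 92.0 in the left and right flanks and 75.8 in the rest of the chromosome. The RefSeq table of build GRCm38.p6 places 42 protein-coding genes with at least 1 end in it, or 11.2 per Mb, where the flanks had 6 and 5 per Mb. It also lists 35 long noncoding RNAs, 17 pseudogenes and 8 microRNAs there. The table gives no strand, so a gene was read from the best-ranked region called in all 4 libraries within 1 kb of either end, which need not be its promoter.

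Of the 42 protein-coding genes, 33 had such a region, and neighbouring genes shared some, which left 29 distinct regions. At 23 of the 33 genes both Hox-/- ranks were better than both wt ranks, where 19.6% of all such genes in the genome had that order, and at none were both worse, against 17.5%. The median rank difference over the 33 genes was 0.59, and the highest was 2.64. In the left block 18 of 23 genes had both Hox-/- ranks better, with a median of 0.76, and in the right block 3 of 3, which rest on 2 regions. In the middle block it was 2 of 6, with a median of −0.03. By fold over background the rank difference was above 0 at 15 of the 33 genes and below 0 at 18, with a median of −0.00, and it was below 0 at 8 of the 23 genes. Chsy3, a chondroitin sulfate synthase gene that spans the picked left edge, is counted among the 33 but was read at an end region outside the stretch. It had ranks of 26617 and 37367 in wt and 29407 and 34536 in Hox-/-, which overlap.

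**Figure D4:**
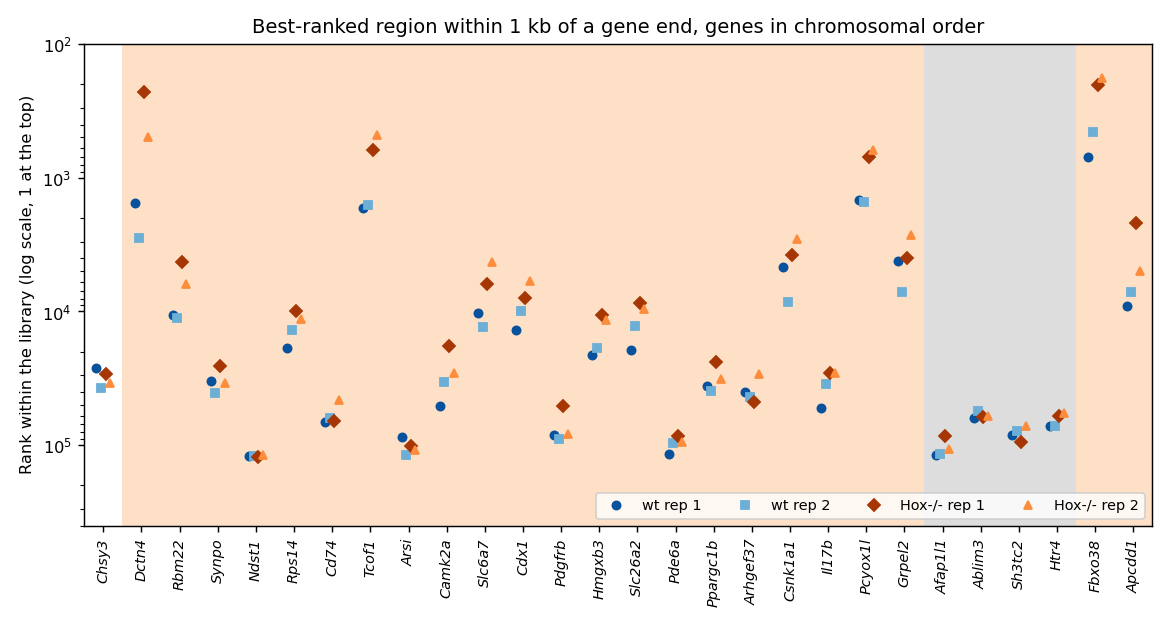
Rank within each library (y axis, log scale, rank 1 towards the top) of the best-ranked region within 1 kb of an end of each protein-coding gene, with genes in chromosomal order on the x axis, each region drawn once and 1 region left out; orange shading marks the left and right blocks and grey the middle block. Red and orange symbols of the Hox-/- libraries sit above the blue ones of the wt libraries at most genes under orange shading, from Dctn4 to Grpel2 and at Fbxo38 and Apcdd1, and are mixed with them at Ablim3 and Sh3tc2 in the middle block.

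All 6 listed genes of the stretch that act on transcription and RNA had both Hox-/- ranks better. They all lie in the left block, where 18 of 23 genes had this order, so the count shows nothing particular to the list. They had rank differences from 0.45 to 1.58 and a median of 0.80. Tcof1 encodes treacle, a nucleolar protein needed to make ribosomal RNA, and its end region ranked 1677 and 1595 in wt and 619 and 482 in Hox-/-, while by fold its rank difference was −0.21. The splicing factor gene Rbm22 ranked 10689 and 11153 in wt and 4270 and 6231 in Hox-/-. Cdx1, a caudal homeobox transcription factor gene that acts with Hox genes in patterning the embryo, ranked 13699 and 9905 in wt and 7979 and 5949 in Hox-/-, a difference of 0.76. In these 3 genes both Hox-/- libraries lay above both wt libraries. The others were the high mobility group gene Hmgxb3 at 0.85, the ribosomal protein gene Rps14 at 0.59 and Ppargc1b, a coactivator of mitochondrial and metabolic genes, at 0.45.

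All 3 kinase and phosphodiesterase genes, also in the left block, had both Hox-/- ranks better, in a block where 18 of 23 genes did. Csnk1a1 encodes casein kinase 1 alpha, which marks β-catenin for destruction, and its end ranked 4667 and 8448 in wt and 3783 and 2865 in Hox-/-, a difference of 0.93. The calcium/calmodulin-dependent kinase gene Camk2a ranked 51252 and 33805 in wt and 18079 and 28958 in Hox-/- at its end, a difference of 0.86. A much stronger region inside Camk2a, chr18:60952077-60953107, ranked 760 and 1256 in wt and 312 and 169 in Hox-/-, the third highest difference of the stretch at 2.09. By fold over background this region had a difference of −0.03. The 13 ranked regions in the body of Camk2a had a median of 0.59. Pde6a, the phosphodiesterase of rod photoreceptors, had 0.24.

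Of the listed receptor genes, 3 had a ranked region at an end and in 2 of these, Pdgfrb and Htr4, both Hox-/- ranks were better. That order was seen in 19.6% of all such genes in the genome, 18 of 23 in the left block and 2 of 6 in the middle block. Pdgfrb, a receptor tyrosine kinase gene of the left block, ranked 83706 and 90098 in wt and 51279 and 82119 in Hox-/-, a difference of 0.42. Its neighbour Csf1r, the receptor of macrophage growth factors, had no region called in all libraries at an end, and 2 ranked regions in its body had a median of 0.16. For Htr4 in the middle block the ranks were 71682 and 71452 in wt and 60394 and 57073 in Hox-/-, a difference of 0.29 in the raised direction within the unshifted block.

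Of the cytoskeleton and trafficking genes, 6 of 7 had a ranked region at an end and in 2 of these both Hox-/- ranks were better, where 19.6% of all such genes in the genome, 18 of 23 in the left block and 2 of 6 in the middle block had that order. Dctn4, a subunit of the dynactin complex that links dynein to its cargo, had the highest difference of all members, 2.64, with ranks of 1534 and 2838 in wt and 227 and 493 in Hox-/-. The peak widths there, 881 and 899 bp for wt beside 921 and 885 bp for Hox-/-, overlapped, and by fold over background the difference was 0.51. At Afap1l1 the end lay in the middle block and ranked 117445 and 116516 in wt and 85489 and 107517 in Hox-/-, a difference of 0.29. Ranks overlapped between the genotypes at Synpo and Arhgef37 of the left block, with differences of 0.31 and 0.17, and at Ablim3 and Sh3tc2 of the middle block, with −0.04 and −0.03.

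The 4 glycan and sulfate genes of the stretch had a median of −0.00, the lowest of the lists. One of them, Chsy3 at −0.02, was read at a region outside the stretch, so the median shows nothing particular to the list. Slc26a2, a sulfate transporter gene, ranked 19339 and 12882 in wt and 8600 and 9550 in Hox-/-. It was the single member of the list with both Hox-/- ranks better, where 19.6% of all such genes in the genome and 18 of 23 in the left block had that order. The heparan sulfate sulfotransferase gene Ndst1 had 0.01 at its best end region, which was among the weakest ranked at 121016 and 121252 in wt and 122529 and 118610 in Hox-/-. Its 12 ranked body regions had a median of 0.30. Arsi, an arylsulfatase gene, had −0.05 at its end, although 2 regions within the gene were called in both Hox-/- libraries alone.

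Among the immune genes, Il17b, a cytokine gene, ranked 53032 and 35007 in wt and 28836 and 28688 in Hox-/-, and Cd74, the invariant chain of MHC class II, had overlapping ranks with a difference of 0.24. The interferon-inducible GTPase gene Iigp1 and its neighbours Gm4951 and F830016B08Rik had no region called in all 4 libraries at an end. Of the remaining listed genes, 4 of 4 with a region had both Hox-/- ranks better, against 18 of 23 genes of the left block and 3 of 3 of the right block. These were Pcyox1l at 1.18, the proline transporter gene Slc6a7 at 1.16, Grpel2, a co-chaperone of mitochondrial Hsp70, at 0.75, and Fbxo38, an F-box protein gene, of which 3 are in the left block. By fold over background the direction turned at Pcyox1l, to −0.47, and at Grpel2, to −0.46. Fbxo38 shares its end region with Spink10, a member of a family of serine protease inhibitors, and that region ranked 700 and 459 in wt and 204 and 180 in Hox-/-, a difference of 1.56 that was −0.71 by fold. The end of Apcdd1 ranked 9129 and 7115 in wt and 2176 and 4963 in Hox-/-, a difference of 1.29.

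Spink7 and Spink13 had no ranked region at an end, and 10 ranked regions in the body of Spink13 had a median of 0.59. For the microRNAs, which act in smooth muscle, the region at Mir143 ranked 90251 and 80114 in wt and 75622 and 78970 in Hox-/-, a difference of 0.14 without overlap. At Mir145a the ranks were 48184 and 57908 in wt and 39302 and 52163 in Hox-/-, which overlap. The 5 lowest differences of the stretch were −0.50, −0.50, −0.46, −0.45 and −0.42. Of these, 3 lay in the middle block, 1 in the empty left end at chr18:59802336-59803131 and 1 in the right block at chr18:62869876-62870469, all of them away from gene ends.

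**Figure D5:**
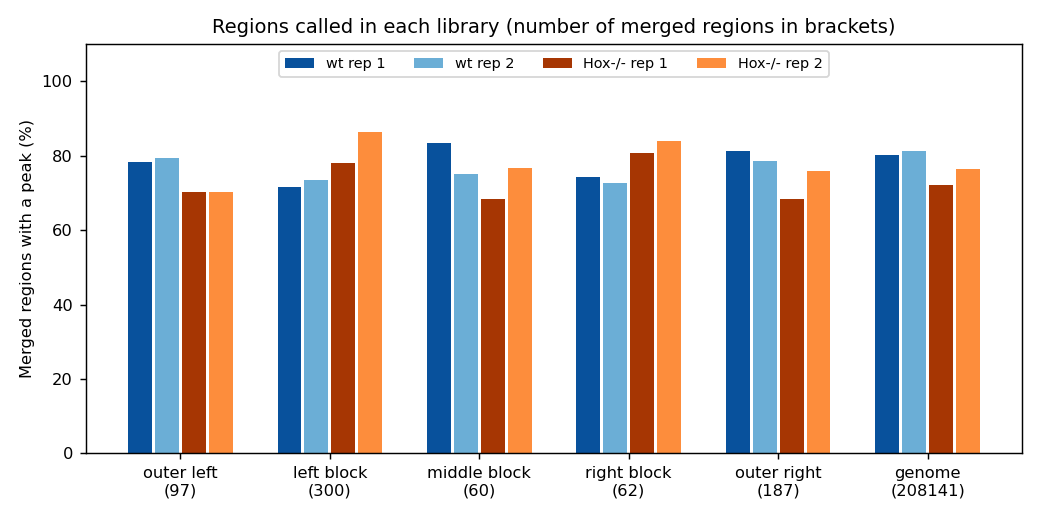
Share of merged regions with a peak (y axis, percent, from 0) in each of the 4 libraries, by block and over the genome (x axis, number of merged regions in brackets). In the left and right blocks both Hox-/- bars are above both wt bars, in the outer pieces and over the genome both are below, and in the middle block the wt bars are at 83.3% and 75% and the Hox-/- bars at 68.3% and 76.7%.

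Stretches picked in the same way on other chromosomes had medians of the same order: 0.36 on chromosome 2, 0.36 on chromosome 1 and 0.37 on chromosome 9. The lowest bin of 0.5 Mb with at least 10 ranked regions had a median of 0.22, 0.26 and 0.31 in these stretches, taken within rounded limits, and −0.00 in the chromosome 18 stretch. The highest bins had 0.53, 0.70 and 0.66, and 0.51 on chromosome 18. The stretches were all picked for their shift, so these values are set side by side and the difference between them was not tested.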

How the data were processed

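Per the submitters' processing notes, cutadapt 4.8, Bowtie2 2.5.0, Picard 2.18.2, bedtools 2.30.0, MACS2 2.2.9.1 and deepTools 3.5.4 were used with build mm10; settings, duplicate handling and read shifting are not given in the sources used here. The authors deposited 1 peak list per library, with a fold over background (a ratio), a −log10 p and −log10 q (lowest 1.30) and a summit for each peak. The score per peak that the authors deposited was not used, and 278 lines on other sequences were left out.

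Members and gene lists were chosen with earlier results of these data known. Libraries were grouped by the genotype label. Regions were ranked within a library by −log10 p; alternatives were the fold, shares of the whole list, −log10 q of at least 5, coverage of 50% of a region, the 100000 strongest peaks, other bins and edges, leaving out each library, and a replicate block. Genes named are those of the fixed lists, the 5 highest and 5 lowest regions, the regions at edges and those called in 1 genotype. Boundary fits and the Poisson solver were tested on simulated data. Python 3.11.15, numpy 2.4.6, pandas 2.3.3 and scipy 1.17.1 were used. RefSeq sequences of the members and 1 gene's values are not reported here.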

Additional observations from a re-analysis of the deposited data

How the results depend on the processing

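The median rank difference of the stretch was 0.058 by fold over background, 0.24 by share of the whole list, 0.42 near gene ends, 0.36 without the middle block, 0.45 by pileup and 0.71 by background. The share of regions with both Hox-/- ranks better was 28.2%, 43.6% (all ranked regions: 11.7%) and 78.2% by fold, share of the list and background. The left step was 0.14, 0.34, 0.41 and 0.25 by fold, share of the list, pileup and background, and 0.28 and 0.27 with 15 and 50 regions a side; the right step was −0.011 by fold, a reversed sign, and 0.56 by background. The range of bin medians over bins with at least 10 ranked regions, 0.51, was 0.18, 0.56, 0.58 and 0.96 under the same 4, 0.47 with −log10 q of at least 5, 0.48 with 50% coverage, 0.63 and 0.13 in bins of 0.25 and 1 Mb, and 0.59 with bins of at least 5 regions. With −log10 q of at least 5 the width difference was 0.016 and 8 regions were called in both Hox-/- libraries alone, beside 4 in both wt libraries alone; the 100000 strongest peaks left 150 regions called in all 4. The cause of these moves was not tested.

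Leaving out 1 library at a time gave 0.29 to 0.32 for the median, 68.9% to 72.5% for the share (all ranked regions: 34.3% to 37.1%), 0.16 to 0.44 and 0.22 to 0.61 for the left and right steps, 0.44 to 0.54 for the range of bins, 0.012 to 0.028 for the width, 24 to 58 and 6 to 19 regions specific to Hox-/- and to wt, and 269 to 282 called in all. Fewer libraries make a strict order easier to meet.

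Replicate numbers did not pair the libraries: the 2 genotypes' replicate differences correlated at 0.004 over all regions. With the replicate block the share was 69.2% (all ranked regions: 28.3%), the left step 0.25, the range of bins 0.42 and the width difference 0.027. Of 96 alternatives, 50 stayed within 1 SD between replicates (counts and the share of regions: within 1.5 times the reported value), 45 moved further and 1 reversed. Pileup, background, bins of at least 5 regions and the left-out middle block were chosen after seeing the data. Read depth is unknown, and peaks below the lists' lower limit are not part of them.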
